A study of Arabidopsis thaliana with 72 samples.

Results

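Cysteine-rich receptor-like kinases (CRKs) were followed in Arabidopsis thaliana leaves in which plasmodesmata, the channels that join neighbouring plant cells, were closed by an inducible transgene. The members were all genes given a symbol from CRK10 to CRK42 in the deposited STAR gene matrix, whatever their values, and their counts were read from the matrix of the plasmodesmal closure experiment. The rule found 32 of the 33602 genes in the matrix. CRK17 is not analysed here, and CRK1 to CRK9 were left out of the members because those symbols can stand for another kinase family.

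CRKs sit in the plasma membrane, with an extracellular part built from cysteine-rich DUF26 domains, a membrane span and an intracellular serine/threonine kinase domain. Many are known as genes that respond to pathogens, salicylic acid and reactive oxygen species, and several affect cell death, stomatal behaviour or resistance to bacteria when overexpressed or lost. In pattern-triggered immunity, a surface receptor that recognises a microbial molecule signals through co-receptors such as BAK1 and through cytoplasmic kinases such as BIK1, and CRK28 and CRK36 are known to associate with proteins of that pathway. CRK2, which is not a member here, is known to act at plasmodesmata.

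The design held 72 libraries in 24 groups of 3 biological replicates, from 3 genotypes, 2 treatments and 4 times. Col-0 was the wild type. The line icals3m carried LexA::icals3m, which expresses a hyperactive form of the callose synthase CALS3 when induced, and the line PD-plug carried LexA::PD-Plug, which also closes plasmodesmata when induced. Plants had been on MS medium with sucrose for 5 weeks under 10 h of light at 22 °C, and leaves were painted on both faces with 20 µM β-Estradiol 17-acetate, the inducer of both transgenes, or with 0.1% DMSO as mock. The labels name 0.01% Silwet L-77, a wetting agent, in the painting solution, and Col-0 received the same treatments. Leaves were taken 12, 24, 48 and 72 h after painting, and each library pooled 2 leaves from 4 plants. Expression of the transgenes was not restricted to a named cell type in the labels, and it depended on painting. A single line of each construct was labelled, so construct and line cannot be told apart. In whole leaves, fewer cells of a type and less RNA per cell cannot be told apart either.

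Totals per library ran from 33207020 to 55367880 counts. CALS3 measured 1447 to 5857 CPM (library-scaled counts) in the 12 icals3m estradiol libraries. Its group means were 171.3 to 281.7 CPM in icals3m under DMSO and 83.17 to 118 CPM in the Col-0 and PD-plug groups. Reads of mCherry, carried by the PD-plug construct, gave 3108 to 29840 CPM in the 12 PD-plug estradiol libraries in the STAR matrix described below. Its group means were 13.29 to 103.7 CPM in PD-plug under DMSO, and no Col-0 library was above 0.2595 CPM. Leaf markers were present in every library (RBCS1A at 8371 to 16600 CPM, the phloem gene SUC2 at 108 to 327 CPM), and of the epidermal markers FDH and ATML1 had medians of 117 and 38.05 CPM and PDF1 of 0.177 CPM. Of 3 root markers, CASP1 and COBL9 stayed at or below 0.0792 CPM and SCR was 23.37 to 42.44 CPM. A second deposited matrix, called the STAR matrix here, held the same libraries. Totals of the matrix used were 1.87 to 2.07 times those of the STAR matrix in 71 libraries and 1.34 times in PD-plug 48 h estradiol replicate 1, which stood apart, so the results at 48 h that rest on that library are also given without it.

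On the TAIR10.1 annotation 31 of the 32 members lay on chromosome 4 and CRK42 lay on chromosome 5, at 16151522 to 16155215. Most stood in tandem runs, with no other annotated gene between them. The longest run held CRK10 to CRK16, 7 genes between 12137995 and 12163193, and it was followed by CRK18 and CRK19 and then by CRK20 to CRK24, which ended at 12191704. CRK36 to CRK39 lay between 2231717 and 2262320, CRK30 to CRK32 between 6963521 and 6973962, and CRK28 and CRK29 between 11398857 and 11405235. CRK28 and CRK29 overlapped on the same strand and CRK10 and CRK11 overlapped on opposite strands, and it is not given in the sources used here whether counting used strand. Of all 100-base windows of the annotated transcript, CRK28 shared 15.03% and CRK29 12.5% with another gene, so reads of that pair could be split between them. CRK16 shared 25.4% of its windows, mostly with the neighbouring locus EMB1290.

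The sequences printed here are the 250 bases before the annotated start of 4 members whose values are described below, 3 members of the long run and CRK40 from elsewhere on the chromosome. Capitals mark W-box hexamers, the motif that WRKY transcription factors bind, searched as TTGACC and TTGACT and as their reverse complements GGTCAA and AGTCAA. The windows are from the TAIR10.1 genome at chr4:12156882-12157131 on the minus strand for CRK14, chr4:12160280-12160529 on the minus strand for CRK15, chr4:12143859-12144108 on the minus strand for CRK11 and chr4:2288366-2288615 on the plus strand for CRK40.
CRK14: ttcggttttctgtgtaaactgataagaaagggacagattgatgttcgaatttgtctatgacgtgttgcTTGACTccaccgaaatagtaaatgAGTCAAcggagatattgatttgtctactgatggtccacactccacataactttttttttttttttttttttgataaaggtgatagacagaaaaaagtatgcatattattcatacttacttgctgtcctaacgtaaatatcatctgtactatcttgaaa
CRK15: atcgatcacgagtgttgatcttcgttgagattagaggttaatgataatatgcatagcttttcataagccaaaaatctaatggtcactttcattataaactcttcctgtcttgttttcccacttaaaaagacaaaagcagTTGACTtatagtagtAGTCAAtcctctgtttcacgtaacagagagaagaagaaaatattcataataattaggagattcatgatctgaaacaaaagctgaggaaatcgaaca
CRK11: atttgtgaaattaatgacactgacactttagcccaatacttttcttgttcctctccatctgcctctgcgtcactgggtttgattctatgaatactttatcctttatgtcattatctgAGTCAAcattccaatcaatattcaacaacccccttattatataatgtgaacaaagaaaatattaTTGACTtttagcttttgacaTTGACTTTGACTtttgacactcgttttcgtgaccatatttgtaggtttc
CRK40: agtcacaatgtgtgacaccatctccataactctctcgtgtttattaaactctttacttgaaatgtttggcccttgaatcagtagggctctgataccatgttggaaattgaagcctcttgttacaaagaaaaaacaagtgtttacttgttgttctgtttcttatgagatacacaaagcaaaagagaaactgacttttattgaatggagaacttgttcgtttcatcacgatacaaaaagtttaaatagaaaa
The CRK14 and CRK15 windows held 2 W-boxes each, the CRK11 window held 4 and the CRK40 window held 0. Among the members, 21 of 32 windows (65.6%) held at least 1 W-box, against 7797 of the 27443 nuclear protein-coding genes (28.4%). At least 2 were found in 9 members (28.1%) and in 6.18% of all those genes. These are counts of letters in a fixed window and no binding was measured.

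Of the 32 members, 29 had enough counts to be tested. CRK25 and CRK33 were at 0 in every library, and CRK32 was above 0 in 5 libraries with at most 20 counts. Levels compared between genes are CPM per kilobase of annotated transcript, averaged over the 72 libraries. CRK18 was the highest at 69.0, followed by CRK21 at 28.4, CRK19 at 19.2, CRK10 at 17.0, CRK22 at 15.5 and CRK40 at 10.3. A middle group ran from CRK29 at 8.28 through CRK28 at 4.90, CRK11 at 4.60 and CRK42 at 4.02 down to CRK16 at 0.903. The lowest 11 tested members, from CRK24 at 0.288 to CRK38 at 0.0163, had a mean under 1 CPM, and only 17 members were above 0 in all 72 libraries. The ranges of neighbours in this order overlapped throughout. CRK18 was among the steadiest, at 105 to 213 CPM over all libraries, and CRK22 at 28.8 to 54.4 CPM, whereas CRK21 ran from 13.7 to 141 CPM.

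**Figure D1:**
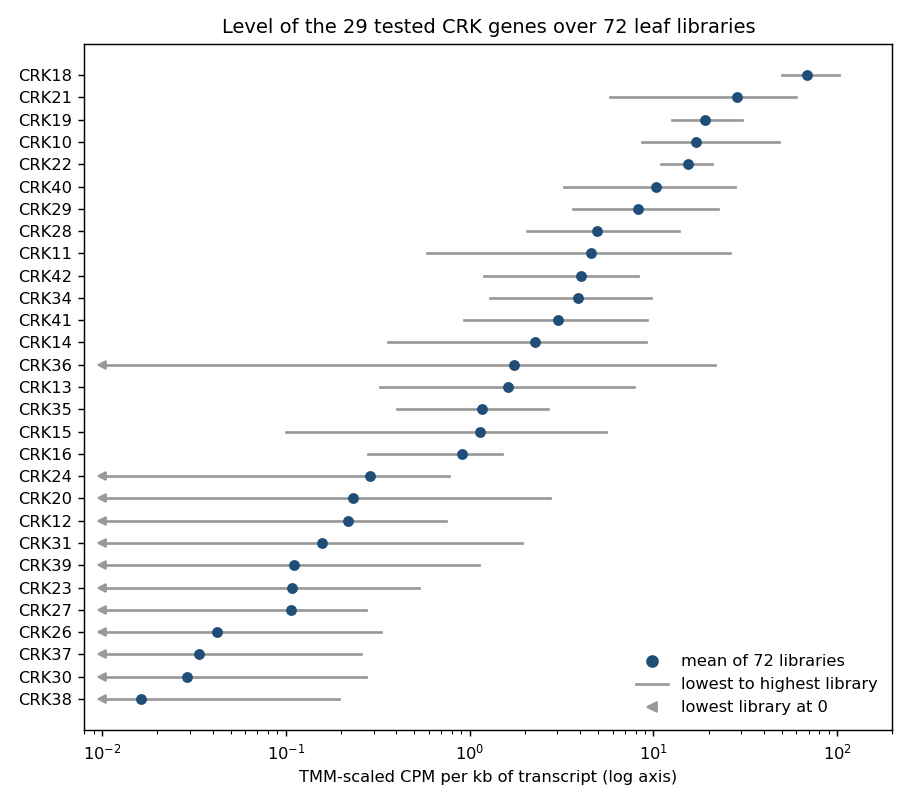
Mean level of each of the 29 tested CRK members over 72 libraries, in CPM per kilobase of transcript on a log axis; lines run from the lowest to the highest library and a triangle marks a member whose lowest library was at 0. CRK18 stood highest at 69.0, and 11 members had means under 1 CPM.

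Many members differed between 12 and 24 h in leaves that received only the mock treatment, as did most tested genes. In Col-0 under DMSO, 19 of the 29 tested members passed the threshold (edgeR's quasi-likelihood test, Benjamini-Hochberg adjusted p under 0.05 over 21241 genes) between 12 and 24 h, where 62.7% of all tested genes did (31.3% higher and 31.5% lower). The members' share was near that of all tested genes. Of the members, 16 fell and 3 rose. The median log2 fold change of the members was -1.46, against -0.016 for all tested genes. CRK36, a kinase linked in earlier work to abscisic acid signalling and stomatal immunity, measured 49.1, 21.0 and 37.7 CPM in the 12 h libraries, whereas those of 24 h held 2.26, 3.10 and 1.14 CPM. The ranges were far apart, and the fitted fall was 4.05 on the log2 scale (SE 0.72, edgeR's quasi-likelihood adjusted p = 2.94e-06). Among the called members, CRK31 and CRK39 had the largest fitted decreases, by 5.24 and 4.28 on the log2 scale, on levels that at 24 h were at or below 0.214 CPM in every library.

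CRK29, which lies beside CRK28 on the chromosome, fell from 68.3, 63.9 and 69.2 CPM to 13.25, 14.6 and 15.8 CPM between those times. CRK40 fell from 48.3, 59.1 and 49.55 CPM to 15.6, 18.15 and 15.1 CPM. In both genes every 12 h library was above every 24 h library, as in 33.8% of all tested genes. CRK21 went the other way, from 23.7, 20.7 and 22.35 CPM to 125.7, 135.0 and 141.2 CPM, and its rise of 2.59 on the log2 scale was joined by rises of 2.16 for CRK42 and 0.64 for CRK22. The CRK20 call was lost in 3 of 6 leave-one-library-out fits (adjusted p up to 0.145), in the STAR matrix and with the replicate block, and the CRK18 call in 2, without Col-0 12 h or 24 h DMSO replicate 1 (adjusted p up to 0.661). The 12 h harvest was the only harvest that was not a whole number of days after painting, so hours since painting and time of day cannot be told apart.

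Fewer members passed in the later steps under DMSO. Between 24 and 48 h 6 members passed (27.1% of all tested genes, 13.6% higher and 13.5% lower), with CRK16 (log2 fold change 0.78), CRK10 (0.57), CRK29 (0.36) and CRK19 (0.36) higher and CRK42 (-1.14) and CRK21 (-0.57) lower. Between 48 and 72 h 6 members passed (12.8% of all tested genes, 7.24% lower), all of them lower, led by CRK24 (-2.21), CRK13 (-1.21) and CRK34 (-0.76). The CRK21 decrease from 24 to 48 h turned in the STAR matrix, where its log2 fold change was 0.11. Also from 24 to 48 h, the CRK16 call was lost in the STAR matrix, without the filter on low counts and in 3 of 6 leave-one-library-out fits (adjusted p up to 0.213 in these). Without Col-0 24 h DMSO replicate 1 the CRK10, CRK29 and CRK19 calls were lost, and those of CRK10 and CRK29 also without 48 h DMSO replicate 1 and replicate 2, respectively (adjusted p up to 0.122 for CRK19 and 0.1004 for CRK29). The CRK19 call was lost in the STAR matrix too. From 48 to 72 h the CRK24, CRK13 and CRK34 calls were each lost in 4 of 6 such fits (adjusted p up to 0.221, 0.224 and 0.273), the CRK19 call in 2 (up to 0.0804), and the STAR matrix did not call CRK24, CRK34 or CRK21.

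In Col-0, which carries neither construct, most members called under estradiol were called at 12 h and were lower. At 12 h 13 members passed in Col-0, 3 higher and 10 lower, where 38.6% of all tested genes passed (21.9% higher and 16.7% lower). The members' median log2 fold change was -0.64, against 0.066 over all tested genes. CRK36 was 49.1, 21.0 and 37.7 CPM under DMSO and 1.67, 2.28 and 4.84 CPM under estradiol. Every estradiol library was below every DMSO library, and the mean was 0.0815 times the DMSO mean (log2 fold change -3.61, SE 0.70, edgeR's quasi-likelihood adjusted p = 3.98e-05). CRK11, the opposite-strand neighbour of CRK10, was 63.65, 37.7 and 52.1 CPM under DMSO and 10.7, 10.4 and 12.0 CPM under estradiol. Its groups did not overlap either (log2 fold change -2.21, SE 0.43, adjusted p = 4.01e-05 in the same test). Of all tested genes 21.5% were lower without overlap in Col-0 at 12 h.

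The linked genes CRK28 and CRK29 were both lower under estradiol at 12 h. CRK28, whose overexpression is known to raise immune signalling and cell death, was 28.2, 34.6 and 31.7 CPM under DMSO and 20.5, 20.8 and 16.5 CPM under estradiol. CRK29 was 68.3, 63.9 and 69.2 CPM under DMSO and 43.4, 42.85 and 43.0 CPM under estradiol. In neither gene did the groups overlap, and the log2 fold changes were -0.71 for CRK28 and -0.64 for CRK29.

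The other members that fell at 12 h in Col-0 were CRK31 (-2.74 on the log2 scale), CRK24 (-2.25), CRK13 (-1.95), CRK41 (-1.30), CRK34 (-1.19) and CRK19 (-0.33). CRK13, known for enhanced resistance to Pseudomonas syringae when overexpressed, was 16.4 ± 3.62 CPM under DMSO and 4.22 ± 1.08 CPM under estradiol (mean ± SD, n = 3 each). The members that rose were CRK15, CRK14 and CRK42. CRK14 was 5.14, 5.38 and 5.72 CPM under DMSO and 9.64, 12.3 and 9.525 CPM under estradiol. CRK15 was 2.195, 2.03 and 2.92 CPM under DMSO and 4.35, 5.06 and 5.99 CPM under estradiol. Every estradiol library was above every DMSO library in both genes, and 27.5% of all tested genes were higher without overlap. The log2 fold changes were 0.95 for CRK14, 1.11 for CRK15 and 0.53 for CRK42. The call for CRK31 was lost in 5 of the 6 fits that each left out 1 library of the comparison (adjusted p up to 0.129), in the STAR matrix and in DESeq2. The CRK14 and CRK24 calls were lost in the STAR matrix and without Col-0 12 h estradiol replicate 2 (adjusted p = 0.0708 and 0.0704), the CRK15 call without estradiol replicate 3 or DMSO replicate 2 (up to 0.0587), and the CRK19 call in the STAR matrix and without estradiol replicate 2 or DMSO replicate 1 (up to 0.123).

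The same treatment left few calls at the later times in Col-0. At 24 h CRK13 fell (log2 fold change -1.71, SE 0.41, edgeR's quasi-likelihood adjusted p = 0.0214) and 0.984% of all tested genes passed, 0.852% lower. It was 6.37, 6.49 and 3.19 CPM under DMSO and 1.96, 1.99 and 0.952 CPM under estradiol, without overlap. Of all tested genes 8.93% were lower without overlap. The CRK13 call was lost in 4 of 6 fits that left out 1 library (edgeR adjusted p up to 0.185). At 48 h 3 members fell, where 6.67% of all tested genes passed (4.19% lower). CRK36 was 2.29, 0.839 and 4.28 CPM under DMSO and 0, 0 and 0.194 CPM under estradiol, so its estradiol group rested on 8 counts and its log2 fold change of -5.17 (SE 1.06, adjusted p = 0.00175) on a group near 0. CRK11 was 8.90, 4.885 and 9.24 CPM under DMSO and 2.89, 1.72 and 2.14 CPM under estradiol (log2 fold change -1.76), and CRK40 was 15.7, 11.3 and 17.3 CPM under DMSO and 9.825, 10.9 and 9.23 CPM under estradiol (-0.56). All 3 genes had every estradiol library below every DMSO library, as in 9.42% of all tested genes. The CRK11 and CRK40 calls were each lost in 4 of 6 fits that left out 1 library (edgeR adjusted p up to 0.0965 and 0.215). The CRK40 call was also lost in the STAR matrix (edgeR adjusted p = 0.0889). At 72 h 0 members passed in edgeR (3 at an unadjusted p under 0.05, 0 in DESeq2) and 0.0141% of all tested genes did.

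**Figure D2:**
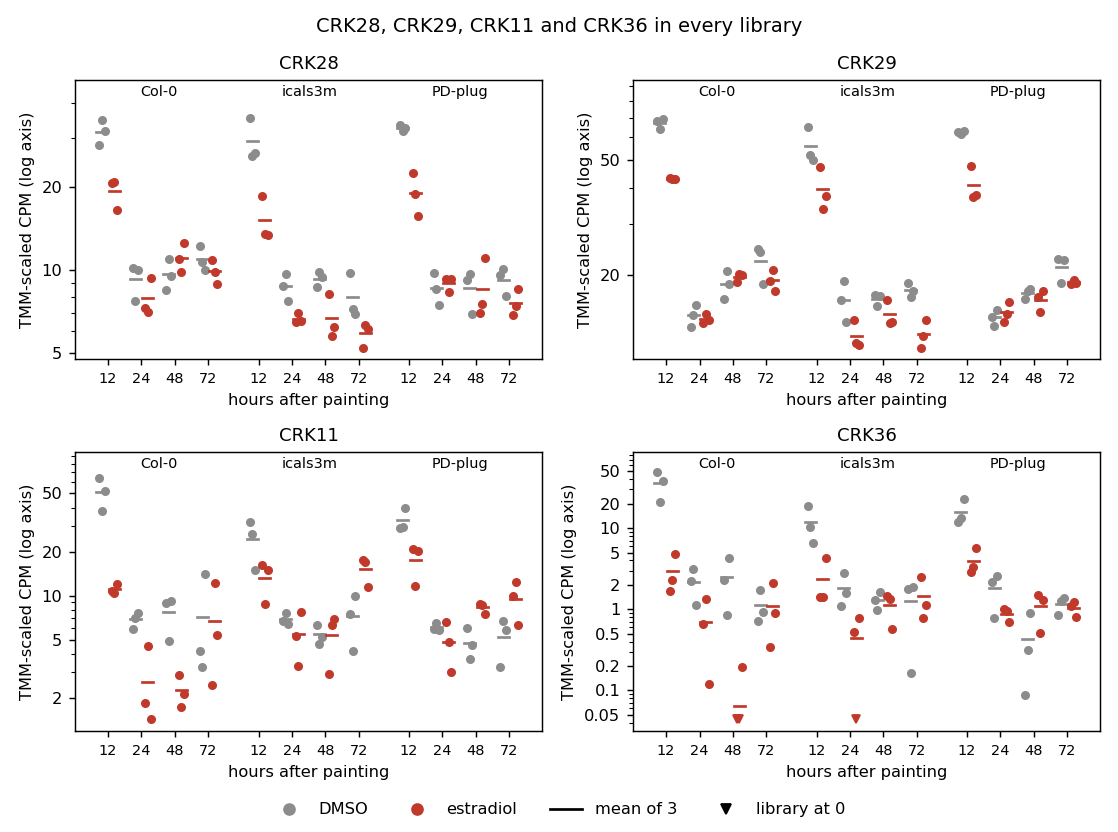
CPM of CRK28, CRK29, CRK11 and CRK36 in each library on a log axis, by genotype and time, with DMSO in grey and estradiol in red; a bar is the mean of 3 libraries and a downward triangle below the values is a library at 0. At 12 h every Col-0 estradiol library was below every Col-0 DMSO library in these 4 genes, as in 21.5% of all tested genes. CRK36 was at 0 in 2 Col-0 estradiol libraries at 48 h.

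At 12 h most called members were lower under estradiol in both lines as well, and the test of the difference from Col-0 called 0 members, with counts given below. In icals3m 7 members passed (17.2% of all tested genes, 8.46% higher and 8.7% lower), CRK42 higher and CRK12, CRK36, CRK13, CRK41, CRK28 and CRK29 lower. Among the called members, the largest fitted log2 fold changes there were -2.70 for CRK12, on 0.483 ± 0.201 CPM under DMSO and 0.0728 ± 0.0125 CPM under estradiol, -2.31 for CRK36 and -1.44 for CRK13. The CRK12 and CRK42 calls were each lost in 4 of 6 fits that left out 1 library (adjusted p up to 0.111 and 0.205), and the CRK13 call without icals3m 12 h estradiol replicate 3 (adjusted p = 0.0506). In PD-plug 10 members passed (27.1% of all tested genes, 12.6% higher and 14.5% lower), CRK15, CRK14, CRK16 and CRK40 higher and CRK36, CRK13, CRK41, CRK28, CRK21 and CRK29 lower. Among these called members, the largest log2 fold changes were -2.01 for CRK36, 1.55 for CRK15 and 1.21 for CRK14. The calls of CRK16, CRK13 and CRK40 in that line did not last in 3, 3 and 4 of 6 leave-one-library-out fits (adjusted p up to 0.0732, 0.0913 and 0.130), and the STAR matrix called 4 members in place of 10.

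CRK28 was 35.3, 25.8 and 26.3 CPM under DMSO and 18.5, 13.5 and 13.4 CPM under estradiol in icals3m at 12 h. In PD-plug it was 33.4, 31.7 and 32.6 CPM under DMSO and 22.3, 18.7 and 15.7 CPM under estradiol. No estradiol library of either line reached the lowest DMSO library of that line. Of all tested genes 16.2% were lower without overlap in icals3m at 12 h and 20.1% in PD-plug. CRK29 was 65.2, 52.0 and 49.96 CPM and then 47.5, 34.0 and 37.6 CPM in icals3m. In PD-plug it was 62.8, 61.7 and 63.2 CPM and then 47.8, 37.4 and 37.8 CPM, without overlap in either line. The CRK29 call of icals3m was lost in the STAR matrix (log2 fold change -0.43, edgeR adjusted p = 0.0696).

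CRK36 was 18.8, 10.2 and 6.505 CPM under DMSO and 1.4, 1.42 and 4.30 CPM under estradiol in icals3m at 12 h. In PD-plug it was 11.8, 13.1 and 22.9 CPM under DMSO and 2.84, 3.33 and 5.69 CPM under estradiol. The groups did not overlap in either line, but each of the 2 calls was lost in 3 of 6 fits that left out 1 library (adjusted p up to 0.0950 and 0.0851). The CRK36 call of PD-plug was also lost in the STAR matrix (-1.58, edgeR adjusted p = 0.154). CRK15 was 3.755, 1.95 and 2.82 CPM under DMSO and 10.43, 7.28 and 7.36 CPM under estradiol in PD-plug (log2 fold change 1.55, SE 0.37, edgeR's quasi-likelihood adjusted p = 0.000886), a call lost in the STAR matrix (adjusted p = 0.137). CRK14 was 5.66, 3.71 and 8.09 CPM and then 17.99, 8.97 and 13.45 CPM in that line. In both genes every estradiol library was above every DMSO library, as in 20.2% of all tested genes. The log2 fold change of CRK16, which shares sequence with a neighbouring locus, was 0.84 in PD-plug at 12 h and turned to -0.05 in the STAR matrix.

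Set against the Col-0 response, 0 members passed at 12 h in icals3m (2 at an unadjusted p under 0.05 and 0 in DESeq2, with 3.16% of all tested genes called by edgeR) and 0 in PD-plug (5 at an unadjusted p under 0.05 and 0 in DESeq2, with 8.3% of all tested genes called). These comparisons share the Col-0 libraries. A p that missed the threshold does not show that the responses were equal: for CRK36 the difference from Col-0 was 1.299 with an SE of 0.92 in icals3m and 1.60 with an SE of 0.91 in PD-plug, on the log2 scale.

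At 24 h the share of members called was near that of all tested genes in icals3m. There CRK29 (log2 fold change -0.41) and CRK42 (-0.46) fell, and 6.48% of all tested genes passed (3.73% lower). CRK29 was 16.4, 19.1 and 13.8 CPM under DMSO and 13.95, 11.7 and 11.5 CPM under estradiol, and the groups overlapped. Both calls were lost in the STAR matrix, and in 3 of 6 fits that left out 1 library for CRK29 and 4 of 6 for CRK42 (adjusted p up to 0.190 and 0.214). In PD-plug 0 members passed in edgeR (2 at an unadjusted p under 0.05, 0 in DESeq2), with 0.49% of all tested genes called. The difference from Col-0 was called for 0 members in icals3m (4 at an unadjusted p under 0.05, 0 in DESeq2) and for 0 in PD-plug (2 at an unadjusted p under 0.05, 0 in DESeq2), with 0.259% and 0.033% of all tested genes called.

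At 48 h PD-plug differed from both other genotypes. Under estradiol 6 members rose in PD-plug and 0 fell, where 13.3% of all tested genes passed (5.66% higher). The median log2 fold change of the 29 tested members was 0.55, or 0.48 with groups at 0 set to 3 counts over the group, against 0 over all tested genes. CRK14 was 1.75, 2.52 and 1.68 CPM under DMSO and 17.7, 11.9 and 8.66 CPM under estradiol.

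CRK15 was 0.886, 0.715 and 0.189 CPM under DMSO and 5.99, 4.92 and 3.08 CPM under estradiol. Both neighbours had every estradiol library well above every DMSO library, with mean ratios of 6.42 for CRK14 (log2 fold change 2.68, SE 0.35, edgeR's quasi-likelihood adjusted p = 1.33e-07) and 7.81 for CRK15 (2.95, SE 0.41, adjusted p = 3.17e-07). CRK40 was 15.9, 11.3 and 14.35 CPM under DMSO and 29.4, 25.5 and 22.2 CPM under estradiol, 1.86 times higher (0.89, SE 0.16, adjusted p = 4.26e-05). CRK10 was 50.6, 37.6 and 32.4 CPM under DMSO and 59.2, 61.4 and 55.4 CPM under estradiol. Its groups did not overlap (0.55, SE 0.18, edgeR's quasi-likelihood adjusted p = 0.0345), and 14.2% of all tested genes were higher without overlap.

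CRK39 and CRK23 also passed, on few counts. CRK39 was at 0 in all 3 DMSO libraries and at 0.377, 0.0852 and 0.300 CPM under estradiol, 31 counts in all. With the DMSO group set to a floor of 3 counts the ratio was 11.4. On counts this low that ratio is not a lower bound. CRK23 was 0.0886, 0 and 0 CPM under DMSO and 0.941, 0.596 and 0.180 CPM under estradiol, 67 counts against 4. Both calls were lost in the STAR matrix and in 5 and 4 of 6 leave-one-library-out fits (adjusted p up to 0.118 and 0.155), and the CRK10 call was lost in the STAR matrix and in 5 of 6 (up to 0.215). Without PD-plug 48 h estradiol replicate 1, the library that stood apart between the matrices, the log2 fold changes were 2.37 for CRK14, 2.73 for CRK15 and 0.79 for CRK40, and these 3 were the members called.

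In icals3m at 48 h 3 members passed (18.3% of all tested genes, 9.25% higher and 9.06% lower), CRK19 higher and CRK42 and CRK28 lower. CRK14 was 2.92, 2.04 and 1.76 CPM under DMSO and 1.46, 1.27 and 1.77 CPM under estradiol, and CRK15 was 1.08, 1.11 and 0.694 CPM and then 1.57, 1.27 and 1.11 CPM. The CRK14 groups overlapped and the CRK15 groups were next to each other. CRK19, from the next tandem run, was 44.4, 43.4 and 49.4 CPM under DMSO and 73.8, 79.1 and 66.5 CPM under estradiol. Its groups did not overlap (log2 fold change 0.68, SE 0.11, edgeR's quasi-likelihood adjusted p = 7.38e-06). Of all tested genes 16.1% were higher without overlap. CRK42 was 11.6, 10.2 and 9.84 CPM and then 6.71, 7.89 and 6.05 CPM (-0.62), and CRK28 was 8.71, 9.82 and 9.415 CPM and then 8.19, 5.78 and 6.24 CPM (-0.47). The CRK28 call was lost in the STAR matrix and in 4 of 6 fits that left out 1 library (adjusted p up to 0.176).

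**Figure D3:**
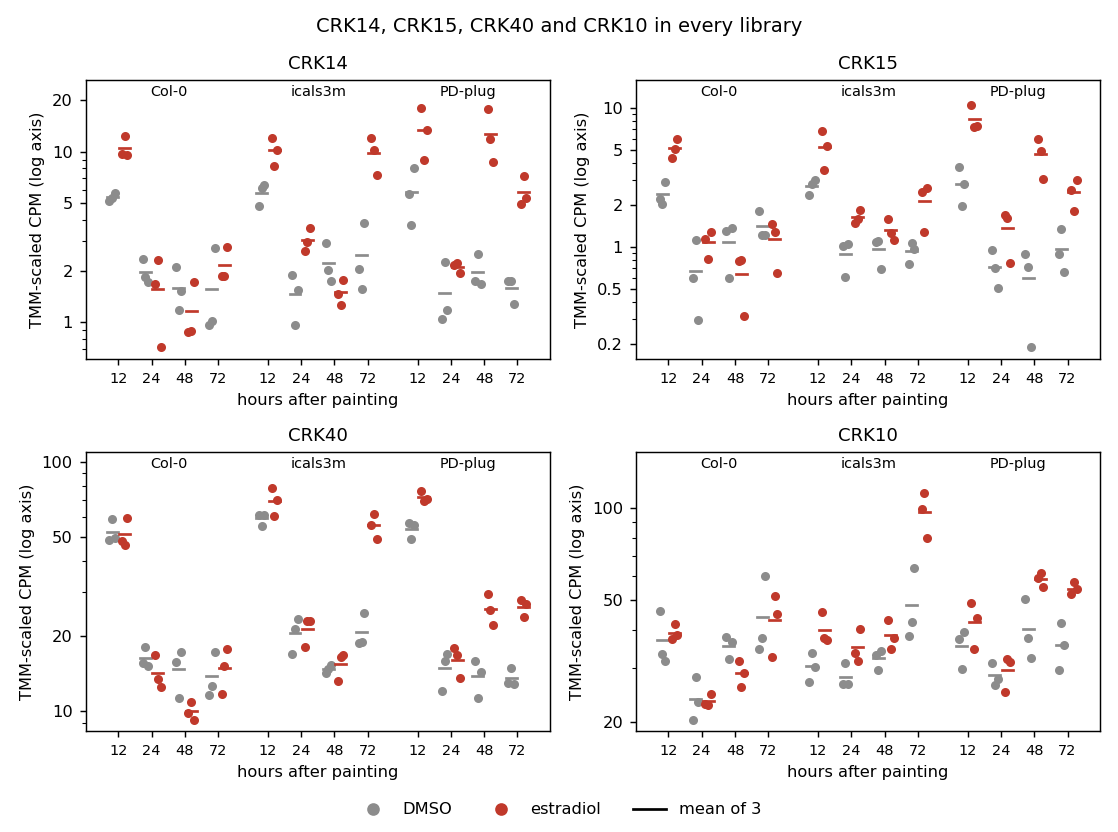
CPM of CRK14, CRK15, CRK40 and CRK10 in each library on a log axis, by genotype and time, with DMSO in grey and estradiol in red; a bar is the mean of 3 libraries. CRK14 under estradiol reached 8.66 to 17.7 CPM in PD-plug at 48 h and 7.29 to 12.05 CPM in icals3m at 72 h, against 0.881 to 1.725 CPM in Col-0 at 48 h.

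The test of each line's response minus the Col-0 response bears on what the constructs added to estradiol. At 48 h 7 members were higher in PD-plug by that test and 0 lower, where 5.56% of all tested genes passed (2.26% higher). The members' median difference was 1.12, or 0.84 with groups at 0 set to the floor, against -0.010 over all tested genes. CRK15 differed by 3.71 (SE 0.58, edgeR's quasi-likelihood adjusted p = 1.99e-05), CRK14 by 3.13 (SE 0.51, adjusted p = 4.73e-05) and CRK40 by 1.45 (SE 0.23, adjusted p = 2.58e-05), on the log2 scale. In Col-0 at 48 h CRK14 was 2.103, 1.18 and 1.52 CPM under DMSO and 0.881, 0.890 and 1.725 CPM under estradiol, and CRK15 was 1.29, 0.592 and 1.355 CPM and then 0.793, 0.8035 and 0.316 CPM. Both Col-0 comparisons had overlapping groups, so for these 2 genes the difference lay mostly in the PD-plug leaves. For CRK40 the difference joined a rise in PD-plug to a smaller fall in Col-0, both given above.

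For CRK36 and CRK11 the difference lay mostly in the Col-0 leaves. CRK36 differed by 6.51 (SE 1.37, edgeR's quasi-likelihood adjusted p = 0.00149), but within PD-plug it was 0.0886, 0.3155 and 0.899 CPM under DMSO and 1.51, 0.511 and 1.299 CPM under estradiol, a log2 fold change of 1.34 that did not pass. CRK11 differed by 2.56 (SE 0.64, adjusted p = 0.00890), with 6.05, 3.68 and 4.59 CPM under DMSO and 8.82, 8.66 and 7.48 CPM under estradiol in PD-plug, a log2 fold change of 0.80 that did not pass either. In Col-0 CRK36 fell by 5.17 and CRK11 fell by 1.76 on that scale. Without Col-0 48 h estradiol replicate 3 the Col-0 estradiol group of CRK36 was at 0 throughout, so the size of its difference is not bounded above. CRK41 differed by 1.12 (SE 0.32) and CRK10 by 0.84 (SE 0.26). The CRK41 call was lost in the STAR matrix and without Col-0 estradiol replicate 3, PD-plug estradiol replicate 1 or PD-plug DMSO replicate 2, and the CRK10 call in the STAR matrix, without the filter on low counts and in 9 of 12 fits that left out 1 library (adjusted p up to 0.147). The calls for CRK15, CRK14, CRK11, CRK36 and CRK40 held in all 12 of these fits and in every other alternative run, with differences of 3.49, 2.82, 2.52, 6.25 and 1.35 without PD-plug 48 h estradiol replicate 1.

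For icals3m at 48 h the difference from Col-0 was called for 4 members, where 13.4% of all tested genes passed (6.26% higher and 7.11% lower). CRK36 (4.97, SE 1.34, edgeR's quasi-likelihood adjusted p = 0.00812) and CRK19 (0.71, SE 0.16, adjusted p = 0.00116) were higher, and CRK42 (-0.94, SE 0.21, adjusted p = 0.00106) and CRK28 (-0.67, SE 0.23, adjusted p = 0.0395) lower. CRK36 within icals3m was 1.28, 0.990 and 1.61 CPM under DMSO and 1.46, 1.35 and 0.576 CPM under estradiol, with overlapping groups, against the fall in Col-0. CRK19 in Col-0 was 69.3, 66.7 and 63.9 CPM under DMSO and 60.6, 68.6 and 66.1 CPM under estradiol, also overlapping. The CRK28 call was lost in 8 of 12 fits that left out 1 library (adjusted p up to 0.125), in the STAR matrix and without the filter on low counts, and the CRK42 call was lost in the STAR matrix (adjusted p = 0.0559).

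The direct test of icals3m against PD-plug at 48 h called 3 members, all lower in icals3m, where 5.16% of all tested genes passed (2.46% lower). CRK14 differed by -3.25 (SE 0.50, edgeR's quasi-likelihood adjusted p = 1.08e-05), CRK15 by -2.50 (SE 0.56, adjusted p = 0.00290) and CRK40 by -0.82 (SE 0.22, adjusted p = 0.0185). The CRK15 call was lost in the STAR matrix (adjusted p = 0.0890), and the CRK40 call was lost without icals3m estradiol replicate 1, PD-plug estradiol replicate 1 or PD-plug DMSO replicate 2 (adjusted p up to 0.0820). Without PD-plug 48 h estradiol replicate 1 the differences were -2.94 for CRK14, -2.28 for CRK15 and -0.72 for CRK40 (adjusted p = 0.0665). The other times gave 0 called members in edgeR: 1 member had an unadjusted p under 0.05 at 12 h, 5 at 24 h and 4 at 72 h, DESeq2 called 0 at each, and 1.19%, 0.358% and 5.35% of all tested genes passed.

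At 72 h CRK14, CRK15, CRK40 and CRK10 were higher under estradiol in icals3m. Under estradiol 10 members passed, 7 higher and 3 lower, where 21.5% of all tested genes passed (10.4% higher and 11.1% lower), and the median log2 fold change was 0.35 against -0.0048 over all tested genes. CRK14 was 2.07, 1.56 and 3.83 CPM under DMSO and 12.05, 10.2 and 7.29 CPM under estradiol, 3.96 times higher on average (log2 fold change 1.99, SE 0.34, edgeR's quasi-likelihood adjusted p = 8.98e-06). CRK40 was 18.8, 18.99 and 24.7 CPM under DMSO and 55.8, 61.6 and 49.1 CPM under estradiol, 2.67 times higher (1.42, SE 0.16, adjusted p = 5.62e-10). CRK10 was 38.3, 42.3 and 63.6 CPM under DMSO and 99.6, 112.4 and 79.95 CPM under estradiol, 2.02 times higher (1.02, SE 0.18, adjusted p = 2.04e-05). In these 3 genes every estradiol library was above every DMSO library, as in 18.2% of all tested genes.

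CRK15 was 0.752, 1.07 and 0.9635 CPM under DMSO and 2.47, 1.29 and 2.65 CPM under estradiol in icals3m at 72 h. Its groups were apart by a small margin (log2 fold change 1.20, SE 0.39, edgeR's quasi-likelihood adjusted p = 0.0183), and the call was lost in the STAR matrix and in 3 of 6 fits that left out 1 library (adjusted p up to 0.0895). CRK34 (0.93), CRK41 (0.85) and CRK19 (0.33) also rose, and CRK21 (-0.54), CRK29 (-0.51) and CRK28 (-0.44) fell. CRK29 was 18.8, 16.8 and 17.7 CPM under DMSO and 11.2, 12.3 and 13.96 CPM under estradiol, without overlap. Of all tested genes 18.4% were lower without overlap. CRK28 was 9.75, 7.24 and 6.96 CPM and then 5.24, 6.35 and 6.12 CPM, also without overlap, and its call was lost in the STAR matrix, without the filter on low counts and in 4 of 6 fits that left out 1 library (adjusted p up to 0.3415). The CRK34, CRK41 and CRK19 calls did not last in 3, 2 and 4 of 6 such fits, and the STAR matrix did not call CRK21 (adjusted p = 0.298), CRK41 or CRK19.

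In PD-plug at 72 h 3 members passed, all higher, where 2.65% of all tested genes passed (1.39% higher). The median log2 fold change was 0.52, or 0.33 with groups at 0 set to the floor, against -0.0051 over all tested genes. CRK14 was 1.76, 1.76 and 1.29 CPM under DMSO and 4.95, 7.17 and 5.34 CPM under estradiol, 3.64 times higher (log2 fold change 1.86, SE 0.35, edgeR's quasi-likelihood adjusted p = 0.000789). CRK40 was 12.96, 14.9 and 12.8 CPM and then 27.9, 23.85 and 26.9 CPM, 1.93 times higher (0.95, SE 0.16, adjusted p = 0.000130). Neither gene's groups overlapped, and 10% of all tested genes were higher without overlap. CRK15 was 0.892, 1.35 and 0.658 CPM and then 2.575, 1.81 and 3.04 CPM (1.34), a call lost in the STAR matrix and in 4 of 6 fits that left out 1 library (adjusted p up to 0.204).

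The Col-0 leaves at 72 h gave the reference for both. CRK14 was 0.970, 1.03 and 2.74 CPM under DMSO and 1.87, 1.87 and 2.76 CPM under estradiol, and CRK40 was 11.6, 12.65 and 17.2 CPM and then 11.8, 15.1 and 17.8 CPM, with overlap in each. The difference from Col-0 was called for 3 members in icals3m, all higher, where 11.3% of all tested genes passed (4.98% higher): CRK40 by 1.31 (SE 0.22, edgeR's quasi-likelihood adjusted p = 3.26e-05), CRK10 by 1.05 (SE 0.25, adjusted p = 0.00344) and CRK14 by 1.54 (SE 0.49, adjusted p = 0.0313). The CRK40 and CRK10 calls held in all 12 fits that left out 1 library and in every other alternative run. The CRK14 call was lost in 7 of 12 fits that left out 1 library (adjusted p up to 0.324), with a log2 difference of 0.88 without Col-0 DMSO replicate 3; these fits were those without Col-0 estradiol replicate 1 or 2, Col-0 DMSO replicate 3, icals3m estradiol replicate 1 or 2, or icals3m DMSO replicate 1 or 2. In PD-plug 0 members passed that test in edgeR (5 at an unadjusted p under 0.05, 1 in DESeq2), with 0.0942% of all tested genes called; CRK40 differed by 0.84 (SE 0.22) and CRK14 by 1.402 (SE 0.50).

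**Figure D4:**
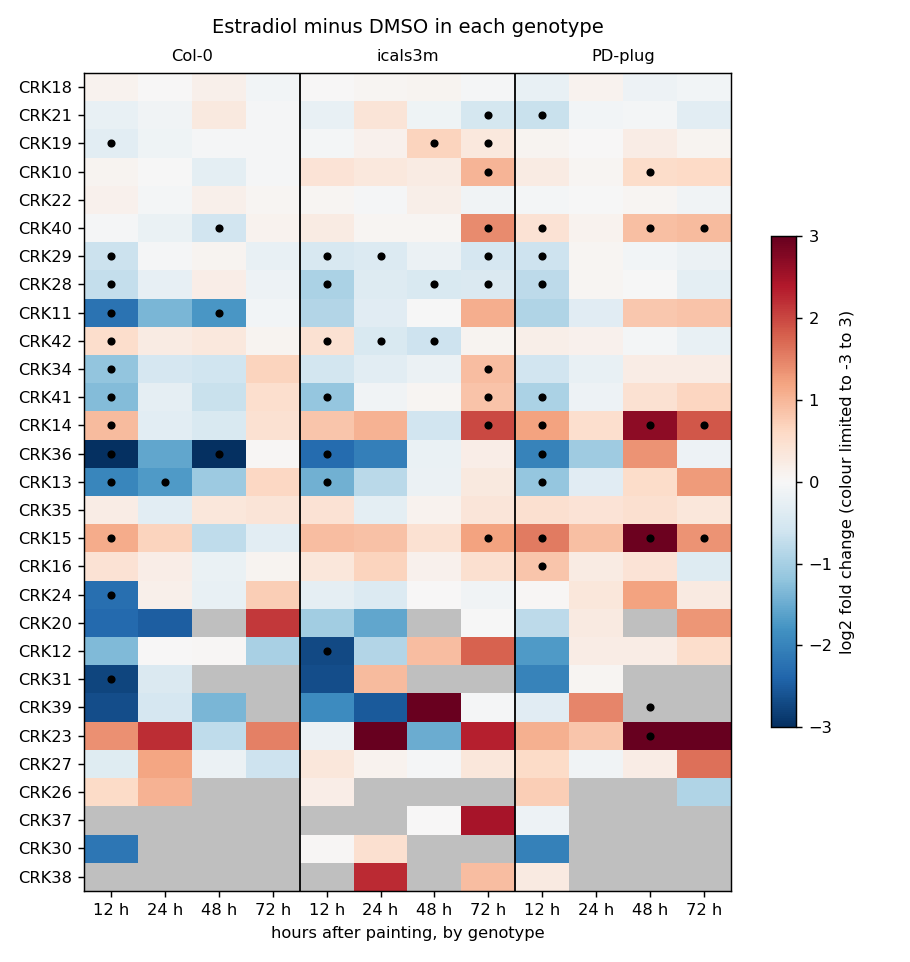
Log2 fold change of estradiol against DMSO for the 29 tested members (vertical) in 12 genotype and time comparisons (horizontal), with colour limited to between -3 and 3; a black dot marks an edgeR adjusted p under 0.05, and a grey cell has a group whose 3 libraries were all at 0. Most dots at 12 h sit on lower values, whereas of the 6 dots of PD-plug at 48 h 5 sit on higher values and 1 (CRK39) on a grey cell, and all 3 at 72 h sit on higher values.

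**Figure D5:**
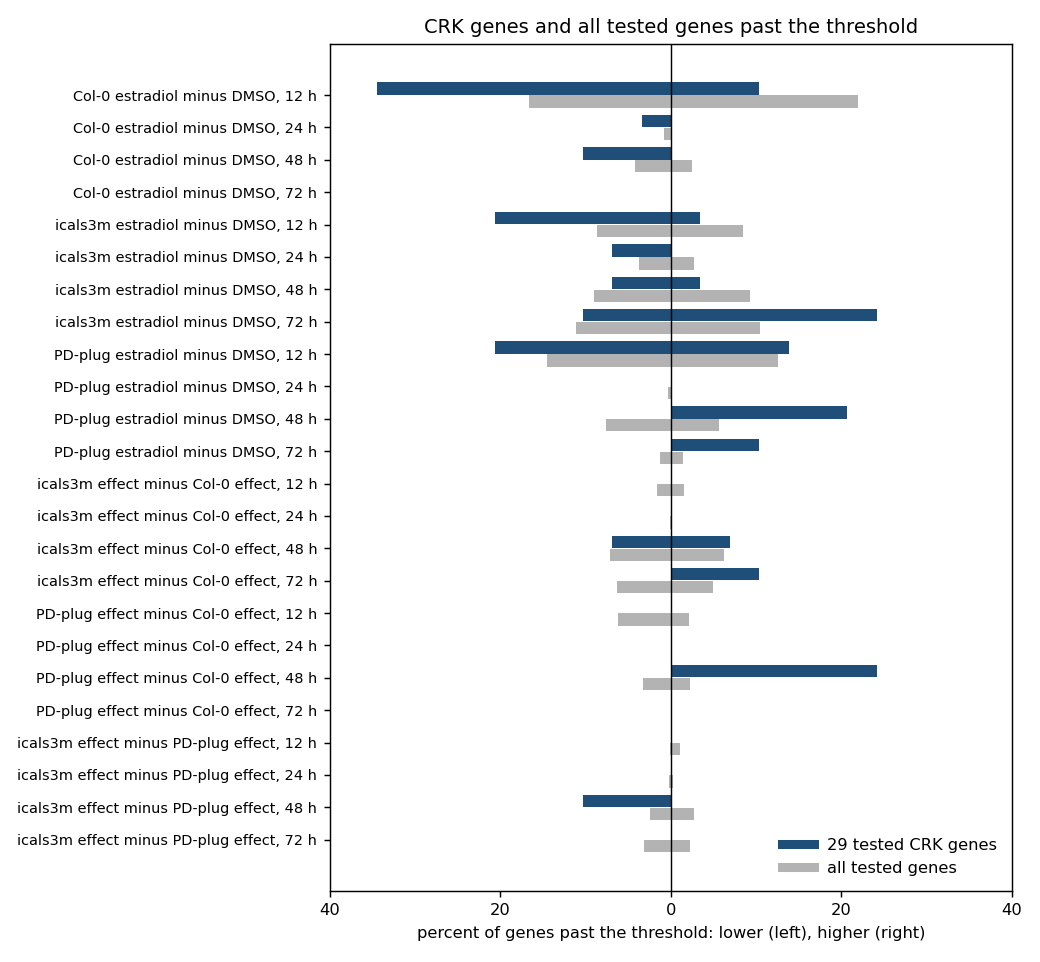
Percent of the 29 tested members and of all 21241 tested genes past the threshold in the 24 estradiol comparisons, with higher to the right and lower to the left. In the difference of PD-plug from Col-0 at 48 h 7 members were higher and 0 lower, beside 2.26% of all tested genes higher.

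The lines were also compared with Col-0 under DMSO, where CALS3 in icals3m and mCherry in PD-plug were above their Col-0 levels. Averaged over the 4 times under DMSO, icals3m differed from Col-0 in 5 members, where 19.1% of all tested genes passed (9.07% higher and 10.1% lower), a share near that of the members. CRK40 (log2 fold change 0.28) and CRK42 (0.27) were higher, and CRK19 (-0.31), CRK21 (-0.22) and CRK29 (-0.15) lower. PD-plug differed in CRK19 only (-0.23), where 6.18% of all tested genes passed (2.61% lower), and the STAR matrix called 0. The CRK29 call of icals3m was lost in the STAR matrix and in 16 of 24 fits that left out 1 library (adjusted p up to 0.125). The CRK21 call of icals3m was lost in the STAR matrix too (-0.15, edgeR adjusted p = 0.7155). CRK14 and CRK15 passed in neither line under DMSO.

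Over the 24 comparisons that involve estradiol, 20 of the 29 tested members passed in at least 1 and 9 in none. CRK40 and CRK14 passed in 8 each, CRK15 in 7, CRK28 and CRK36 in 6 each and CRK29 in 5. The 9 were CRK18, CRK22, CRK35, CRK20, CRK27, CRK26, CRK37, CRK30 and CRK38, which include the highest and the fifth highest member per kilobase and 6 members under 1 CPM. The symbol CRK35 in the matrix belongs to the locus AT4G11530, which RefSeq names CRK34, and the symbol CRK34 belongs to AT4G11521. Of the overlapping neighbours CRK10 and CRK11, CRK11 fell by 2.21 in Col-0 at 12 h and CRK10 had a log2 fold change of 0.08 that did not pass; the difference between the genes was not tested. CRK12, between CRK11 and CRK13 in the same run, was under 2 CPM in every library and passed only in icals3m at 12 h. Of the 7 members higher in PD-plug than in Col-0 at 48 h, 5 had a W-box in the window before the gene, and of the 3 higher in icals3m at 72 h, 1 had.

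The wider signalling pathway was read with the same test, on lists chosen with earlier results of these data known. Counts and medians of these lists are therefore only descriptive. Among 22 genes of pattern-triggered signalling, the difference from Col-0 was higher for 11 and lower for 0 in icals3m at 72 h (11.3% of all tested genes, 4.98% higher), with LYK5, part of the chitin receptor complex, at 1.23 and SOBIR1, a co-receptor of receptor-like proteins, at 1.20 on the log2 scale. The median of the list was 0.41, against -0.0054 over all tested genes. In PD-plug at 48 h 4 were higher and 0 lower (5.56% of all tested genes, 2.26% higher), SOBIR1 at 1.53 and LYK5 at 1.399 with BKK1 and MPK3, and the median was 0.28 against -0.010. Without PD-plug 48 h estradiol replicate 1 these 4 calls were kept, with SOBIR1 at 1.32 and LYK5 at 1.44.

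At 48 h in icals3m 3 genes of the list were higher, a share near the 13.4% of all tested genes (6.26% higher), including BIK1 at 0.96 and MKK5 at 0.66. BIK1 fell by 0.48 in Col-0 and rose by 0.47 in icals3m at that time. At 12 h 2 were higher in icals3m (BAK1 0.54, AGB1 0.32), beside 3.16% of all tested genes, and 3 in PD-plug (BIK1 0.79, AGB1 0.42, BAK1 0.38), beside 8.3% (2.11% higher). These differences at 12 h go with falls in Col-0 under estradiol, by 1.39 for BIK1, 0.61 for BAK1 and 0.37 for AGB1. Within PD-plug BIK1 fell by 0.60 and BAK1 fell by 0.23, and AGB1 (0.05) did not pass; within icals3m BAK1 (-0.07) and AGB1 (-0.05) did not pass. At 24 h PBL1 (0.99) was the only gene of the list called, in icals3m (0.259% of all tested genes). PBL1 fell by 1.296 in Col-0 at 24 h, and its -0.31 within icals3m did not pass. In PD-plug 0 were called at 24 and 72 h. Between the lines, the estradiol effects on SOBIR1 (-1.13) and BKK1 (-1.09) were lower in icals3m at 48 h (5.16% of all tested genes, 2.46% lower). Without PD-plug 48 h estradiol replicate 1 these differences were -0.92 and -0.85, with both calls kept. At 72 h 4 genes, CPK28 (0.61) and MPK3 (0.48) among them, were higher in icals3m (5.35% of all tested genes, 2.25% higher).

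Of 6 sources and sensors of apoplastic oxidants, the difference from Col-0 was called for 3 in icals3m at 48 h (13.4% of all tested genes): the peroxidase gene PRX34 (1.31) and the NADPH oxidase gene RBOHD (0.96) were higher and the hydrogen peroxide sensor gene HPCA1 (-0.40) was lower. In Col-0 at 48 h PRX34 fell by 1.21 and RBOHD fell by 0.41, and HPCA1 rose by 0.25. Within icals3m RBOHD rose by 0.55, and PRX34 (0.10) and HPCA1 (-0.15) did not pass. The difference of RBOHD in icals3m from Col-0 was also called at 72 h, as higher (0.83). The difference of PRX34 in PD-plug from Col-0 at 48 h (1.64) was not called without PD-plug 48 h estradiol replicate 1 (1.46, adjusted p = 0.0738), and within PD-plug its 0.43 did not pass. Between the lines, HPCA1 was lower in icals3m at 48 h (-0.57 with and without that library) and RBOHD higher at 72 h (0.75).

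Of CRK1 to CRK9, 8 were tested, beside the same shares of all tested genes. In icals3m the difference from Col-0 was higher for CRK3 at 48 h (0.98) and for CRK5 (3.12) and CRK9 (0.72) at 72 h. In PD-plug that difference was higher for CRK6 (5.72) and CRK2 (0.80) at 48 h. Without PD-plug 48 h estradiol replicate 1 it was 4.99 and 0.72, with both calls kept. CRK5 rose from 0.389 ± 0.0610 to 3.36 ± 0.274 CPM in icals3m at 72 h, and the DMSO level of CRK6 in PD-plug at 48 h was 0.0561 ± 0.0972 CPM, against 5.43 ± 3.94 CPM under estradiol (mean ± SD, n = 3 each). CRK7 was called in PD-plug at 12 h from a DMSO group at 0 and is given no fold. Within icals3m at 72 h CRK6 (4.57) and CRK8 (1.54) were also called higher under estradiol, and CRK7 on groups that overlapped. Of all tested genes 10.4% were called higher there. Between the lines CRK9 was higher in icals3m at 24 h (0.87, beside 0.358% of all tested genes), and CRK6 (-7.23) and CRK4 (-0.82) were lower at 48 h. Without that PD-plug library CRK6 differed by -6.50 and the CRK4 call was lost (-0.72, adjusted p = 0.0555). CRK2, known to act at plasmodesmata, was 37.6 ± 3.23 CPM under DMSO and 60.1 ± 5.65 CPM under estradiol in PD-plug at 48 h (mean ± SD, n = 3 each). Between the lines CRK2 was not called at 48 h. Without PD-plug 48 h estradiol replicate 1 its difference, icals3m minus PD-plug, was -0.23 (edgeR's quasi-likelihood adjusted p = 0.5855). Within icals3m at 48 h CRK2 was also called higher under estradiol (log2 fold change 0.37, edgeR's quasi-likelihood adjusted p = 0.0287). Against Col-0, CRK2 was called at 48 h in PD-plug and not in icals3m. The CRK2 rise at 48 h was therefore seen in both lines, and a difference in its size between them was not shown.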

How the data were processed

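Gene counts of 72 leaf libraries were analysed. The authors deposited 2 gene matrices of estimated counts, unscaled whole numbers in which low values are often multiples of 4 (the value 4 fills 40727 cells, 3 fills 8585 and 5 fills 10399), so rounding changed nothing. The submitters' processing notes name FastQC 0.11.8, Trim Galore 0.5.0, cutadapt 1.7, HISAT2 2.1.0, STAR 2.5, SAMtools 1.4.1, StringTie 1.3.3 and the TAIR10 build, with no role or order; which tool made each matrix, and whether counting used strand, is not given in the sources used here. Low counts therefore carry more error than fragment counts of the same size would.

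Library totals were 33207020 to 55367880, and a floor of 3 counts was at most 0.0941 CPM. All columns were used (0 left out).

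edgeR 4.0.16 in R 4.3.3 was fitted to the matrix of the plasmodesmal closure experiment, with a filter for genes (a minimum count of 10 and a minimum total of 15), TMM scaling, 24 group means and quasi-likelihood tests on 48 residual degrees of freedom. P-values were adjusted by Benjamini-Hochberg over 21241 genes, with a threshold of 0.05. A call is an adjusted p under that threshold. The 29 comparisons were estradiol against DMSO within each genotype and time, each line's estradiol effect minus that of Col-0, the effect in icals3m minus that in PD-plug, each line against Col-0 under DMSO, and time steps of Col-0 under DMSO. CPM values use TMM-scaled totals. Comparisons that share libraries are not independent.

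Alternatives were the STAR matrix, DESeq2 1.42.0, the replicate number as a block, testing without the filter, RLE scaling, and leaving out each library in turn. The fits were also run on simulated data with 200 genes changed in a single group. That setting is simpler than these data, and no result here rests on it. Members named were the 6 called in most estradiol comparisons and, in each comparison, up to 3 called members with the largest fold change. Per-library values were given for many of these but not all. CRK31 and CRK24 in Col-0 at 12 h, for example, have log2 fold changes only. Further called members, CRK11 in Col-0 at 12 h among them, were named or given per-library values after their values were seen. Members and lists were chosen with earlier results of these data known.

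The 250 bases before each annotated gene start were read from the RefSeq TAIR10.1 genome, whose chromosome sequences were used for sequence only, since the deposited matrices hold no coordinates.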

Additional observations from a re-analysis of the deposited data

Results flagged for a closer look

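These results are listed because a test of the difference itself, between the estradiol effects of 2 genotypes, passed the threshold (edgeR's quasi-likelihood test). Of all tested genes 5.56% passed in PD-plug against Col-0 at 48 h and 5.16% in icals3m against PD-plug at 48 h. In icals3m against Col-0 13.4% passed at 48 h and 11.3% at 72 h, each near the members' share. The member results are given as log2 differences. In PD-plug against Col-0 at 48 h they were 6.51 for CRK36, 3.71 for CRK15, 3.13 for CRK14, 2.56 for CRK11, 1.45 for CRK40, 1.12 for CRK41 and 0.84 for CRK10. In icals3m against Col-0 at 48 h they were 4.97 for CRK36, 0.71 for CRK19, -0.94 for CRK42 and -0.67 for CRK28. In icals3m against Col-0 at 72 h they were 1.54 for CRK14, 1.31 for CRK40 and 1.05 for CRK10. In icals3m against PD-plug at 48 h they were -3.25 for CRK14, -2.50 for CRK15 and -0.82 for CRK40. The CRK36 differences at 48 h rest on Col-0 estradiol libraries at or near 0. In PD-plug against Col-0 the CRK10 call was lost in 9 of 12 fits that left out 1 library and the CRK41 call in 3. In icals3m against Col-0 the CRK28 call at 48 h was lost in 8 of 12 and the CRK14 call at 72 h in 7. Between the lines the CRK40 call was lost in 3 of 12. Losses in the STAR matrix are given above.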

How the results depend on the processing

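Of 112 member results past the threshold, 111 kept their direction and call in DESeq2, 112 with RLE size factors, 107 without the filter on low counts and 72 in the STAR matrix, where 38 lost the call and 2 turned: CRK16 in PD-plug at 12 h (-0.0454, from 0.84) and CRK21 in Col-0 under DMSO from 24 to 48 h (0.11, from -0.57). The cause was not tested. Leaving out 1 library kept 716 of 882 member results and lost 166.

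Counts of called members in the STAR matrix were 0 in icals3m at 24 h (from 2), 5 in icals3m at 72 h (from 10), 4 in PD-plug at 12 h (from 10), 2 in icals3m against Col-0 at 48 h (from 4), 3 in icals3m under DMSO (from 5), 0 in PD-plug under DMSO (from 1) and 3 in the step from 48 to 72 h (from 6). DESeq2 gave 5 in icals3m at 24 h, 5 in PD-plug at 72 h (from 3), 7 in icals3m against Col-0 at 48 h and 1 in PD-plug against Col-0 at 72 h (from 0). No filter on low counts gave 1 in icals3m at 24 h. These are the counts that moved most in proportion, and further counts moved less. In Col-0 at 12 h the STAR matrix called 9 members (from 13). In PD-plug at 48 h it called 4 and DESeq2 called 8 (from 6). In PD-plug against Col-0 at 48 h the STAR matrix called 6 and DESeq2 called 10 (from 7).

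With each library left out in turn, counts ran from 0 to 2 in Col-0 at 24 h, 1 to 5 in Col-0 at 48 h, 4 to 7 in icals3m at 12 h, 0 to 2 in icals3m at 24 h, 6 to 11 in icals3m at 72 h, 6 to 9 in PD-plug at 12 h and 3 to 5 in PD-plug at 48 h. They ran from 3 to 7 in icals3m against Col-0 at 48 h, 5 to 10 in PD-plug against Col-0 at 48 h, 0 to 1 in PD-plug against Col-0 at 12 h, 0 to 1 between the lines at 12 h and 1 to 2 in PD-plug under DMSO. Under DMSO in Col-0 they ran from 3 to 7 for the step from 24 to 48 h and 3 to 8 from 48 to 72 h. For estradiol in Col-0 at 12 h they ran from 9 to 12, all below the 13 of the full fit. Not every range is listed.

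Replicate numbers did not pair the samples: over 36 pairs with the same number, deviations from the group means correlated between -0.0785 and 0.0857. With the replicate block, 7 members were called in PD-plug at 48 h (from 6) and 18 from 12 to 24 h in Col-0 under DMSO (from 19), and the other counts did not move. Nothing in the labels says that replicates were separate experiments beyond the pools of leaves, so p-values measure the spread between these samples. The refits of genes that are not members without PD-plug 48 h estradiol replicate 1 were chosen after seeing the data.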
